A study of Mus musculus with 12 samples.

Results

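Fear conditioning was compared with its control at the level of messenger RNA (mRNA), long noncoding RNA (lncRNA) and circular RNA (circRNA) in the basolateral amygdala (BLA) of male C57BL/6J mice aged 10 weeks. The F group consisted of 3 libraries from mice that received pairings of a tone with foot shock and were killed about an hour later. The control group consisted of 3 libraries from mice taken through that procedure without shock. These are 6 of the 12 libraries in the series, whose labels name the tissue amygdala. The other 6, set beside them only for orientation, come from extinction (E) mice, which were conditioned and later heard the tone without shock, and retrieval-extinction (RE) mice, which received a reminder before that extinction session. The study describes 3 mice per group, and the labels do not say more about how a library relates to an animal. No transgene or mutation is named in the labels, isoflurane was given before the brains were taken, and the tissue was cut from coronal slices, so that neighbouring nuclei and white matter can be part of a sample.

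The BLA is where the sound and the shock signals meet, and its glutamatergic projection neurons hold a large part of the fear memory. Neurons that fire during learning switch on immediate early genes, of which some encode transcription factors (the Fos, Egr and Nr4a families) and others act at the synapse (Arc, Homer1, Bdnf). Shock also releases glucocorticoid hormone, whose receptor induces genes such as Sgk1, Fkbp5, Tsc22d3 and Per1 in neurons, glia and vessels. In bulk tissue of this kind, fewer cells of a type and less RNA per cell cannot be told apart.

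Recovered mRNA depth was 11001920 to 18921660 fragments in F and 12542964 to 23167359 in control, and back-splice junction reads numbered 9530 to 18851 in F and 13494 to 23446 in control. F 1 and control 2 stood apart from the other 4 libraries along the first principal component, which held 18.4% of the variance, together with 1 E and 1 RE library. In F 1 and control 2 the choroid plexus transcript Ttr was at 45.8 and 229.6 FPKM (fragments scaled to transcript length and library size), against 2.84 to 3.08 FPKM in the other F and control libraries. Defining BLA genes were present in every library, with Rspo2 at 2.90 to 4.43 FPKM in F and 1.90 to 3.02 FPKM in control, and markers of striatum, such as Ppp1r1b at 80.1 to 243.1 FPKM in F and 73.7 to 357.6 FPKM in control, were present as well.

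No mRNA among 13517 tested, no lncRNA among 9408 and no circRNA among 3241 passed an adjusted p of 0.05 (Benjamini-Hochberg; limma for FPKM values and edgeR's quasi-likelihood test for junction reads). The smallest adjusted p was 0.185 for mRNA, 0.535 for lncRNA and 0.217 for circRNA. Without adjustment, 957 mRNAs (7.08%) had p under 0.05, of which 567 (4.19%) were higher and 390 (2.89%) lower in F. The corresponding totals were 389 lncRNAs (4.13%) and 136 circRNAs (4.20%). Single genes below are therefore described by their values in each library, by whether the 3 F libraries lay clear of the 3 control libraries, and by adjusted p-values, unadjusted ones entering only the counts. The share of all tested mRNAs whose groups did not overlap was 7.51% in the higher and 5.03% in the lower direction, and that is the background against which the counts in each gene list stand.

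Among the immediate early transcription factors, 23 of 26 tested genes had a higher mean in F and 3 a lower one, with a median log2 fold change of 0.65 against 0.01 over all tested mRNAs. In 12 of them, 46.2% of the list, the higher level came with an unadjusted p under 0.05, and in 12 the groups did not overlap, against 4.19% and 7.51% of all tested mRNAs. Fosb, a Fos family partner in the AP-1 complex, had 7.75, 5.73 and 5.97 FPKM in F, against 3.64, 2.19 and 3.48 FPKM in control (log2 fold change 1.06 ± 0.21 SE, adjusted p = 0.21). Every F value of Fosb lay above every control value. Its relative Fosl2 was at 11.95, 9.41 and 9.54 FPKM in F and at 7.91, 5.88 and 5.88 FPKM in control (log2 fold change 0.65 ± 0.16). Fos itself overlapped, with 35.3, 26.4 and 18.6 FPKM in F and 20.8, 13.3 and 17.7 FPKM in control (0.61 ± 0.40, adjusted p = 0.86).

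The Egr family of zinc finger factors, which serve as standard markers of synaptic activation, followed the same direction. Egr2 had 6.99, 5.59 and 3.78 FPKM in F and 3.17, 1.62 and 3.57 FPKM in control (log2 fold change 0.97 ± 0.32). Egr3 had 39.2, 34.2 and 41.9 FPKM in F and 32.8, 15.9 and 27.2 FPKM in control (0.66 ± 0.20). For both genes the F libraries lay above all control libraries, although the lowest F and the highest control value of Egr2 were close. Egr1 overlapped, since control 1 reached 85.5 FPKM against 70.9 to 91.0 FPKM in F (0.52 ± 0.31).

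The orphan nuclear receptors of the Nr4a family were higher as well. Nr4a3 had 18.3, 12.4 and 11.4 FPKM in F, against 9.71, 7.51 and 8.22 FPKM in control (log2 fold change 0.70 ± 0.20, adjusted p = 0.4). Nr4a2 had 18.01, 26.6 and 23.0 FPKM in F, against 16.4, 8.04 and 13.4 FPKM in control (0.88 ± 0.30, adjusted p = 0.48). Nr4a1 showed 1 F library, at 18.2 FPKM, below the highest control library, at 20.8 FPKM (0.71 ± 0.33, adjusted p = 0.71). Npas4, a factor induced by calcium entry and the one most restricted to neurons, did not follow this direction: it was at 2.92, 5.10 and 2.97 FPKM in F and at 5.24, 3.67 and 6.15 FPKM in control (log2 fold change -0.46 ± 0.31, adjusted p = 0.87).

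**Figure D1:**
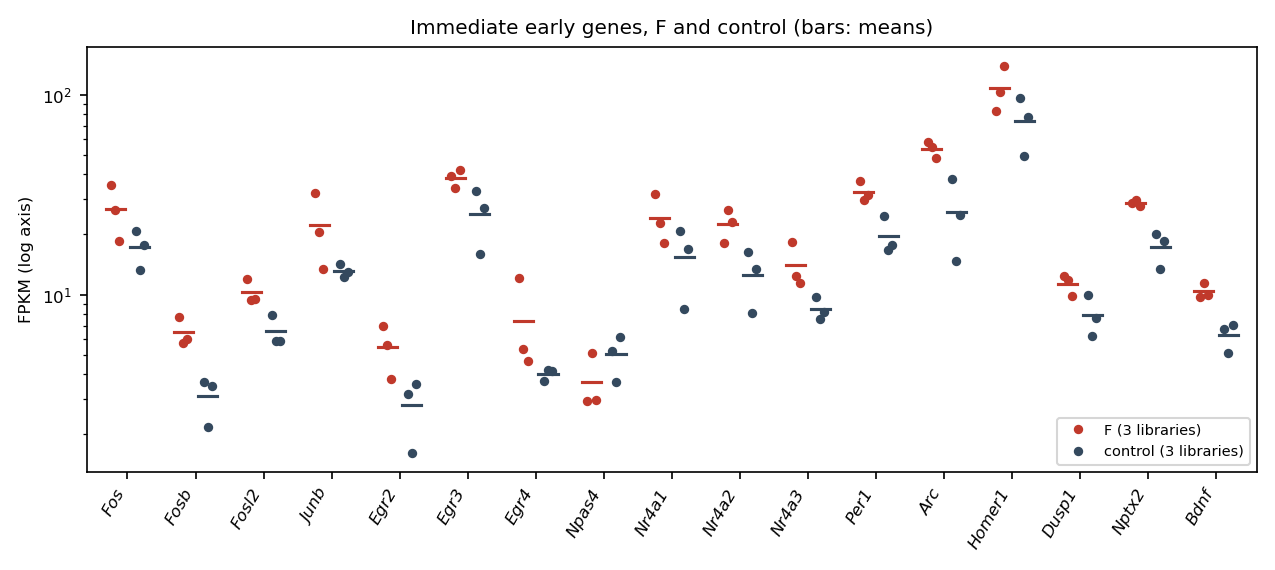
FPKM (log axis) of 17 immediate early genes in each F library (red, left) and each control library (dark, right), with bars for the group means. The F values of Fosb, Nptx2 and Bdnf lie above all control values, Fos and Junb overlap, and Npas4 has its lower mean in F.

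Of the immediate early effectors, which act at synapses or feed back on signalling, 23 of 26 tested genes were higher in F and 3 lower (median log2 fold change 0.42). In the higher direction 10 did not overlap, against 7.51% of all tested mRNAs. Arc, which traffics AMPA receptors, had 57.9, 54.6 and 48.0 FPKM in F, against 38.0, 14.7 and 25.01 FPKM in control (log2 fold change 1.14 ± 0.30, adjusted p = 0.31). The neuronal pentraxin Nptx2, which clusters AMPA receptors, was at 28.7, 29.6 and 27.7 FPKM in F and 20.1, 13.5 and 18.4 FPKM in control (0.74 ± 0.19, adjusted p = 0.31). Bdnf, the neurotrophin most closely tied to synaptic plasticity, was at 9.75, 11.4 and 9.99 FPKM in F and 6.69, 5.12 and 7.07 FPKM in control (0.72 ± 0.16, adjusted p = 0.23). In all 3 genes the lowest F value exceeded the highest control value. The phosphatase gene Dusp5, which inactivates ERK, and the pseudokinase gene Trib1 were clear of control too, with log2 fold changes of 0.71 ± 0.21 and 0.62 ± 0.16. Homer1 overlapped (82.8, 103.0 and 138.5 FPKM in F and 96.2, 49.2 and 77.0 FPKM in control), as did Dusp1 (9.87 to 12.3 FPKM in F and 6.22 to 9.98 FPKM in control).

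Genes that follow neuronal activity with a delay were more divided, with 19 of 29 higher and 10 lower (median log2 fold change 0.20, and 0.11 without F 2). The neuronal pentraxin Nptx1 was at 71.6, 69.1 and 66.1 FPKM in F and 46.2, 50.4 and 49.1 FPKM in control (0.50 ± 0.10, adjusted p = 0.21), and Frmd6 at 7.55 to 8.54 FPKM in F and 4.77 to 5.07 FPKM in control (0.72 ± 0.15). The secretory granule genes did not stand clear: Vgf (0.28 ± 0.22), Nrn1 (0.19 ± 0.13), Pcsk1 (0.35 ± 0.22) and Scg2 (-0.24 ± 0.17) all overlapped between groups. Tac1, the substance P precursor, was at 14.6, 19.7 and 35.6 FPKM in F, against 58.2, 25.6 and 35.3 FPKM in control (-0.78 ± 0.35, adjusted p = 0.69).

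Control 2 was the lowest control library in 12 of the 14 named transcription factors and 7 of the 7 named effectors, and without it the medians of the lists were 0.43 and 0.29. In the 8 libraries that did not stand apart they were 0.35 and 0.21. Both lists kept a positive median in every alternative run. Summed FPKM of the pyramidal neuron list was 2594 to 2612 in F and 1895 to 2407 in control, so that markers of excitatory neurons moved in the same direction, and its part in the immediate early difference was not tested. Against the E and RE libraries, 25 of the 26 transcription factors had a higher mean in F (median log2 fold change 0.57, with 15 at an unadjusted p under 0.05, against 3.99% of all mRNAs), and here Npas4 was also higher in F (0.63 ± 0.27). Both comparisons share the F libraries.

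The promoters of these genes are shown because immediate early genes are known to be started by CREB at cAMP response elements (CRE), by SRF at CArG boxes and by EGR proteins at GC-rich sites. Sequences are the coding strand upstream of a RefSeq start of each gene in GRCm38.p6, from base -120 to the start. Where a gene has several starts, the start with most matches in this window was taken, so these examples were chosen for their matches. Capitals mark the matches: the CRE half-site TGACG and the EGR motif GCGGGGGCG in either orientation, and the CArG box. The windows lie within chr7:19309996-19310295 (Fosb, minus strand), chr15:101266596-101266895 (Nr4a1, plus) and chr10:67537619-67537918 (Egr2, plus).
Fosb: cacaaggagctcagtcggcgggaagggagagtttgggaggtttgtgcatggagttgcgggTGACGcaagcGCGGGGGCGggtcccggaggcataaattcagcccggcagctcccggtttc
Nr4a1: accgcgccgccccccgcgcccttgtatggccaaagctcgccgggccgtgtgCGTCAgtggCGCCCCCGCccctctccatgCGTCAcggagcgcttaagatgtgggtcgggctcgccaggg
Egr2: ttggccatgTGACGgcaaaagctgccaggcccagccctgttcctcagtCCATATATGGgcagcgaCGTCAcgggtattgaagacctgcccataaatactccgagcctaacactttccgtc

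In the 250 bases upstream of any of their starts, 16 of 21 immediate early transcription factors with a RefSeq promoter (76.2%) held TGACG on either strand, as did 12 of 21 effectors (57.1%), against 19.8% of 27025 genes searched. The full element TGACGTCA was found at 2 transcription factors and 4 effectors, Dusp1 among them, against 1.77% of all genes. The EGR motif was found at 5 transcription factors (Fosb, Fosl2, Nr4a1, Klf2 and Klf4) and 1 effector, against 2.93% of all genes. The CArG box was found at 1 of 21 transcription factors, Egr2, and at 2 of 21 effectors, against 1.62% of all genes. Every full CRE also counts as a half-site. A match is a string of letters and was not tested as a binding site.

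Glucocorticoid-induced genes formed the second list that was higher in F. Of 27 tested genes, 20 had a higher mean and 7 a lower one (median log2 fold change 0.53). At an unadjusted p under 0.05, 17 were higher and none lower, against 4.19% and 2.89% of all tested mRNAs. The groups did not overlap in 15, all higher in F, against 7.51%. Sgk1, a kinase that regulates ion channels, was at 46.3, 56.0 and 61.0 FPKM in F and 37.1, 25.8 and 26.2 FPKM in control (0.89 ± 0.19, adjusted p = 0.21). Tsc22d3, which encodes the leucine zipper GILZ, was at 25.6, 24.2 and 28.0 FPKM in F and 15.6, 18.4 and 13.2 FPKM in control (0.73 ± 0.13, adjusted p = 0.21). Fkbp5, a co-chaperone that dampens the glucocorticoid receptor, was at 13.9, 15.9 and 14.1 FPKM in F and 10.5, 10.1 and 8.75 FPKM in control (0.58 ± 0.13, adjusted p = 0.23). None of these 3 genes overlapped between groups.

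Larger fold changes were found at lower levels. The zinc finger repressor gene Zbtb16 had 9.71, 14.3 and 12.04 FPKM in F, against 3.92, 6.34 and 4.25 FPKM in control (log2 fold change 1.31 ± 0.24). Hif3a, a member of the hypoxia-inducible factor family, had 2.47, 4.31 and 5.28 FPKM in F, against 1.30, 1.26 and 0.988 FPKM in control (1.62 ± 0.29, adjusted p = 0.21). Hif3a was the 1 gene that passed the adjusted threshold when edgeR was run on recovered fragments (log2 fold change 1.87, adjusted p = 0.0447). Per1, at once a clock gene, an immediate early gene and a glucocorticoid target, was at 37.2, 29.7 and 31.4 FPKM in F and 24.6, 16.7 and 17.8 FPKM in control (0.75 ± 0.18). Rassf3 was at 5.43, 6.31 and 6.98 FPKM in F and at 4.00, 3.02 and 3.20 FPKM in control (0.86 ± 0.17).

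This list differed from the immediate early genes when F was set beside E and RE: its median log2 fold change was then -0.11, with 10 genes higher and 17 lower in F, and Sgk1 had a lower mean in F (-0.52), whereas Tsc22d3 (-0.03) was close to 0. The difference between the 2 comparisons was not tested. One Sgk1 start carries a full glucocorticoid response element (AGAACA and TGTTCT with 3 free bases between them, which reads alike on both strands), found at 3 of the 27025 genes searched and at 1 of 24 glucocorticoid-induced genes with a RefSeq promoter. Its half-site TGTTCT was found at 5 of the 24 (20.8%), near the 18.2% of all genes. The 80 bases from -220 to -140 of that start, within chr10:21993640-21993939 on the plus strand, are printed with the element in capitals.
Sgk1: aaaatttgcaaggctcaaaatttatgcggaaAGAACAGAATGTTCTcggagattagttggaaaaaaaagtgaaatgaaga

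Vessel genes were higher in F in the same libraries. Of 28 endothelial genes, 25 were higher and 3 lower (median log2 fold change 0.41, and 0.39 to 0.45 when any 1 of the 6 libraries was left out). In the higher direction 13 did not overlap, against 7.51% of all tested mRNAs. Cd34, a sialomucin of endothelial and progenitor cells, had the smallest p of all mRNAs: it was at 7.71, 10.2 and 11.1 FPKM in F and 4.40, 4.02 and 4.50 FPKM in control (1.13 ± 0.16, adjusted p = 0.185). The adhesion receptor gene Eltd1, active in sprouting vessels, was at 6.98, 5.84 and 6.11 FPKM in F and 2.91, 3.35 and 1.96 FPKM in control (1.20 ± 0.21). The VEGF receptor gene Flt1 (7.07 to 8.84 FPKM in F and 4.37 to 5.72 FPKM in control) and the glucose transporter gene Slc2a1 (20.9 to 22.1 FPKM in F and 9.93 to 15.3 FPKM in control) were likewise clear of control. The defining endothelial genes Pecam1 (0.19 ± 0.24) and Cldn5 (-0.37 ± 0.30) overlapped between groups, and their part in the vessel list as a whole was not tested.

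Mural cells gave a divided picture. Rgs5, a pericyte marker that restrains G-protein signalling, was at 19.8, 23.4 and 21.5 FPKM in F and 12.1, 15.5 and 13.7 FPKM in control (0.65 ± 0.11, adjusted p = 0.21). Pdgfrb, the receptor that defines pericytes, was at 2.71 to 3.76 FPKM in F and 3.76 to 4.05 FPKM in control (-0.34 ± 0.16), and 9 of the 16 tested mural genes were higher and 7 lower. Against E and RE, the endothelial median was 0.05 and Cd34 -0.05.

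**Figure D2:**
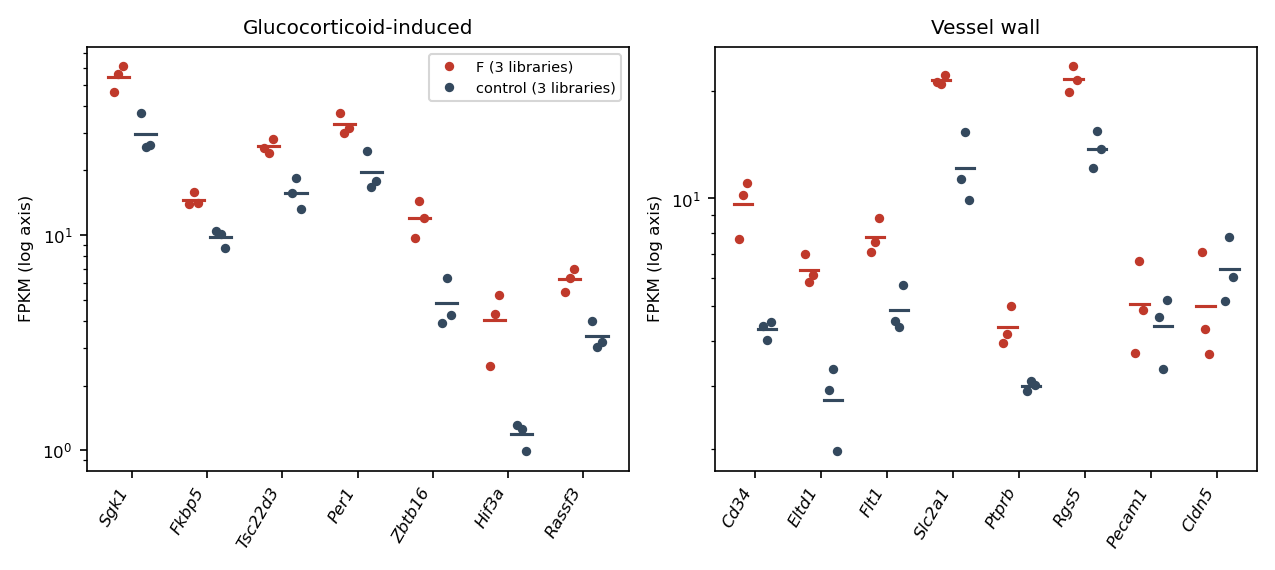
FPKM (log axis) of glucocorticoid-induced genes (left panel) and vessel wall genes (right panel) in each F library (red, left) and each control library (dark, right), with bars for the means. Sgk1, Tsc22d3, Zbtb16, Hif3a, Cd34, Eltd1 and Rgs5 do not overlap between groups, whereas Pecam1 and Cldn5 do.

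Adrenergic receptors and receptors of growth factors were examined as part of the listed families. Adra1d, the alpha-1D adrenergic receptor gene, had 5.05, 3.85 and 4.80 FPKM in F, against 0.769, 2.23 and 0.553 FPKM in control (log2 fold change 2.08 ± 0.43, adjusted p = 0.21). Adrb1, the beta-1 receptor gene, differed far less, with 10.6, 9.65 and 9.19 FPKM in F and 7.75, 7.47 and 8.77 FPKM in control (0.29 ± 0.13). Both were clear of control, and 5 of 7 tested adrenergic receptors were higher, but the median of 0.11 turned to -0.10 without F 1. Gfra2, the coreceptor gene of neurturin, was at 10.7, 15.7 and 13.1 FPKM in F and 6.43, 9.28 and 6.03 FPKM in control (0.86 ± 0.23), and Sort1, a sorting receptor of proneurotrophins, at 101.4 to 106.9 FPKM in F and 79.2 to 88.4 FPKM in control (0.32 ± 0.08). Ntrk2, the Bdnf receptor gene, overlapped (0.10 ± 0.10).

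Further genes completed the highest-ranked mRNAs of this direction. The hexokinase-domain gene Hkdc1 was at 2.18, 3.44 and 2.91 FPKM in F and 0.297, 1.11 and 0.376 FPKM in control (2.25 ± 0.46). The copine gene Cpne9 was at 7.93, 16.1 and 17.4 FPKM in F and 5.79, 4.31 and 3.71 FPKM in control (1.51 ± 0.33). The collagen gene Col24a1 was at 0.698, 2.07 and 1.63 FPKM in F and 0.277, 0.373 and 0.057 FPKM in control (2.25 ± 0.53), and 3110035E14Rik at 61.8 to 84.1 FPKM in F and 34.7 to 36.5 FPKM in control (1.00 ± 0.23). Hkdc1, Cpne9, Col24a1, Hif3a, Zbtb16 and Cd34 had their lowest F value in F 1, 1 of the 2 libraries that stood apart. Eltd1, Fosb and Adra1d did not.

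Neuronal identity genes also differed. Of 20 pyramidal neuron genes, 17 were higher and 3 lower in F (median log2 fold change 0.37). Without overlap 10 were higher and 1 lower, against 7.51% and 5.03% of all tested mRNAs. Among the higher ones were the transcription factor genes Neurod6 (14.1, 21.8 and 20.1 FPKM in F and 11.2, 5.62 and 8.98 FPKM in control) and Neurod2 (15.95, 17.3 and 13.6 FPKM in F and 9.04, 9.34 and 12.2 FPKM in control). Camk2a, the alpha subunit of the plasticity kinase CaMKII, was at 696.3, 669.2 and 621.7 FPKM in F and 554.1, 526.3 and 593.4 FPKM in control (0.25 ± 0.11). General neuron markers had a median of 0.10 (0.06 without F 1 or without control 2), with Rbfox3 (0.21 ± 0.15), Snap25 (0.20 ± 0.18) and Syt1 (0.11 ± 0.14) overlapping. Listed BLA genes were 11 higher and 7 lower (median 0.09). That median was 0.0018 without F 1, 0.0030 without control 3, 0.19 without control 2 and 0.29 without F 3. Mef2c, a factor that restrains synapse number, was clear of control at 99.2 to 115.6 FPKM in F and 62.0 to 84.3 FPKM in control (0.53 ± 0.14).

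Among inhibitory neuron genes 6 of 23 were higher and 17 lower (median log2 fold change -0.26, and -0.17 without control 2). Gad2, which makes GABA for vesicles, was at 46.4, 44.7 and 48.4 FPKM in F and 64.3, 68.3 and 56.8 FPKM in control (-0.44 ± 0.10, adjusted p = 0.23). Gad1 overlapped by a narrow margin (75.7 to 82.6 FPKM in F and 81.9 to 110.3 FPKM in control). The peptide genes Vip (14.1, 16.6 and 13.4 FPKM in F and 7.83, 11.5 and 7.91 FPKM in control, 0.71 ± 0.26) and Cck (198.3, 223.4 and 168.5 FPKM in F and 113.2, 112.6 and 149.96 FPKM in control, 0.65 ± 0.22) went the other way. Sst (-0.17 ± 0.12) and Pvalb (-0.09 ± 0.37) overlapped.

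Markers of neighbouring regions varied among libraries of the same group. Striatal spiny neuron genes were lower in 23 of 24 cases (median -0.38), yet their summed FPKM was 603.7 to 1375 in F and 558.6 to 2062 in control, and without control 1 the median was 0.10. Central amygdala genes were lower in 16 of 20 (median -0.25, and -0.15 without F 3, -0.16 without control 1 and -0.17 without control 3), with summed FPKM of 557.8 to 680.8 in F and 541.2 to 994.4 in control. Their part in the other lists was not tested.

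Cholinergic neuron genes showed the lowest median of all lists, -1.54, with 9 of 9 tested genes lower in F, 6 of them at an unadjusted p under 0.05 and 3 without overlap, against 2.89% and 5.03% of all mRNAs. These genes mark cholinergic neurons, among them those of the basal forebrain, whose axons densely supply the BLA and whose cell bodies lie just above it. The region that the cholinergic transcripts came from was not tested. Lhx8, the LIM homeobox gene required for their identity, was at 0.249, 1.24 and 1.14 FPKM in F and 3.17, 4.55 and 1.79 FPKM in control (-1.88 ± 0.45, adjusted p = 0.29). Slc5a7, the choline transporter gene, was at 0.214, 1.04 and 2.13 FPKM in F and 3.24, 4.10 and 2.19 FPKM in control (-1.78 ± 0.57), and Chat, which makes acetylcholine, at 0.0786, 0.835 and 1.62 FPKM in F and 2.80, 2.29 and 1.38 FPKM in control (-1.72 ± 0.70). Slc10a4, a vesicular protein of cholinergic terminals, was at 0.0611, 0.643 and 0.675 FPKM in F and 1.61, 1.95 and 0.922 FPKM in control. F 1 was lowest in each of these 4 genes, and without it the list's median was -0.91. The median was -0.79 in the 8 libraries that did not stand apart and -0.61 with a pseudocount of 1. Levels were low throughout, the summed FPKM of the list being 24.0 to 27.9 in F and 28.0 to 59.7 in control. Against E and RE, 9 of 9 were lower in F as well (median -1.40). Striatal spiny neuron genes were also lower there, in 24 of 24 (median -0.98, 12 at an unadjusted p under 0.05, against 4.48% of all mRNAs). Their part in the cholinergic difference was not tested.

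Of 39 tested myelin structural genes, 38 were lower in F and 1 higher (median log2 fold change -0.48). In this list 19 were lower at an unadjusted p under 0.05 and 20 without overlap, against 2.89% and 5.03% of all tested mRNAs. Summed FPKM of the list was 1526, 1563 and 1808 in F, against 2084, 2485 and 1985 in control. Opalin, a sialylated protein of the paranodal loop, was at 3.06, 3.31 and 3.73 FPKM in F and 5.39, 7.37 and 6.41 FPKM in control (-0.90 ± 0.24, adjusted p = 0.34). Cnp, which encodes an enzyme of the cytoplasmic channels of myelin, was at 38.4 to 45.6 FPKM in F and at 51.6 to 73.6 FPKM in control. Car2, the carbonic anhydrase of oligodendrocytes, had a small but even difference (30.8 to 34.7 FPKM in F and 41.5 to 48.0 FPKM in control, -0.42 ± 0.10, adjusted p = 0.29). Mog, Mal, Cldn11 and Mobp overlapped, with log2 fold changes of -0.52, -0.37, -0.41 and -0.26, because F 3 reached the control range in each.

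Of the factors that drive oligodendrocyte differentiation, 10 of 11 were lower (median -0.39). Olig2 was at 5.21, 4.12 and 5.34 FPKM in F and 5.64, 9.96 and 7.08 FPKM in control, Sox10 at 7.38, 6.26 and 7.03 FPKM in F and 8.49, 10.6 and 9.35 FPKM in control, and Tcf7l2, an effector of Wnt signalling in maturing oligodendrocytes, at 3.40, 3.15 and 4.37 FPKM in F and 5.23, 6.21 and 5.33 FPKM in control. Among oligodendrocyte precursor genes 17 of 19 were lower (median -0.24, and -0.41 without F 1), but the defining pair Pdgfra (-0.19 ± 0.21) and Cspg4 (-0.10 ± 0.28) overlapped. Astrocyte genes were lower in 21 of 22 (median -0.14, 1 without overlap) and microglial genes in 21 of 23 (median -0.17, and -0.09 without F 3, 1 without overlap). The share of all tested mRNAs lower without overlap was 5.03%. The medians of the myelin list lay below those of both cell types. Control 2 was the highest control library in 11 of the 13 named myelin genes, and without it the myelin median was -0.35 and that of astrocytes 0.0043. In the 8 libraries that did not stand apart the myelin median was -0.31. Against E and RE, 38 of 39 myelin genes were lower in F (median -0.62, 30 at an unadjusted p under 0.05, against 4.48% of all mRNAs). Of the differentiation factors 8 were lower and 3 higher there (median -0.19, none at an unadjusted p under 0.05), and of the precursor genes 11 were lower and 8 higher (median -0.11).

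**Figure D3:**
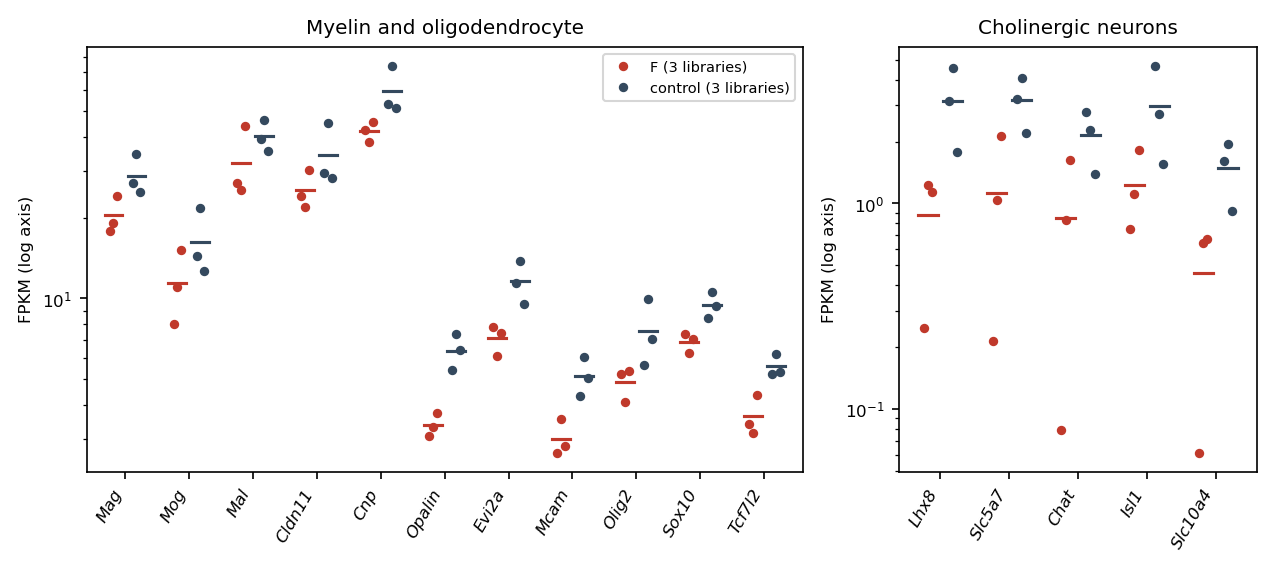
FPKM (log axis) of myelin and oligodendrocyte genes (left panel) and of cholinergic neuron genes (right panel) in each F library (red, left) and each control library (dark, right), with bars for the means. Opalin, Cnp and Tcf7l2 do not overlap between groups, F 3 reaches the control range in Mog and Mal, and F 1 is lowest in the cholinergic genes.

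Genes of the protein synthesis apparatus and of chromatin were lower by small amounts. Of 45 ribosomal protein genes, 44 were lower in F and 1 higher (median log2 fold change -0.20, 11 lower at an unadjusted p under 0.05 against 2.89% of all tested mRNAs), led by Rps24 (229.5 to 246.1 FPKM in F and 302.4 to 351.0 FPKM in control, -0.45 ± 0.10, adjusted p = 0.23). Without control 2 the median was -0.08. Rpl41, outside the list, was at 49.7, 19.3 and 68.7 FPKM in F and 128.9, 86.6 and 181.4 FPKM in control (-1.64 ± 0.40). Of 25 histone genes 23 were lower (median -0.22), with the linker histone gene Hist1h1e at 6.51, 8.33 and 11.1 FPKM in F and 12.3, 15.6 and 17.5 FPKM in control (-0.82 ± 0.25). Mitochondrially encoded transcripts were lower in 10 of 13 and overlapped in 12, summing to 15659 to 26282 FPKM in F and 16878 to 35639 FPKM in control. Their log2 fold changes were not all small and ranged from -4.11 to 5.19. The source of this spread was not tested.

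The other highest-ranked mRNAs of lower level had varied roles. The protease inhibitor gene Serpinb1a was at 0.863, 0.838 and 1.14 FPKM in F and 2.73, 2.205 and 2.09 FPKM in control (-1.22 ± 0.24, adjusted p = 0.21). Trim59, a ubiquitin ligase gene, was at 1.90, 2.72 and 2.90 FPKM in F and 4.42, 6.52 and 5.14 FPKM in control (-1.07 ± 0.23), and Pls1, which bundles actin, at 1.15, 1.34 and 2.09 FPKM in F and 3.37, 4.05 and 3.97 FPKM in control (-1.30 ± 0.33). Mid1 (-1.62 ± 0.45), Rmi1 (-1.09 ± 0.29) and Tnfrsf13b (-1.80 ± 0.40) were lower without overlap as well, and the unannotated gene ENSMUSG00000090483 was listed near 0 in F, with 1.14, 2.23 and 1.34 FPKM in control.

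Receptor and signalling families outside these lists had medians near 0: glutamate receptors (median 0.08, 14 higher and 10 lower), GABA-A receptors (0.04), cholesterol synthesis (0.02), axon guidance (-0.02) and potassium channels (0.09, 30 higher and 12 lower). Over all alternatives these medians lay between -0.07 and 0.19. Within them, the NMDA receptor subunit gene Grin2a was at 55.4, 58.7 and 66.4 FPKM in F and 51.0, 44.0 and 49.3 FPKM in control (0.32 ± 0.10), while Grin1, Grin2b and Gria1 overlapped. Epha4, an ephrin receptor gene of dendritic spines, was at 29.8 to 36.0 FPKM in F and 20.3 to 24.6 FPKM in control (0.57 ± 0.14), and the inward rectifier subunit Kcnj3 at 42.8 to 45.6 FPKM in F and 32.3 to 38.6 FPKM in control (0.35 ± 0.11). Of the potassium channel genes, 7 (16.7%) were higher at an unadjusted p under 0.05 and 0 lower, against 4.19% and 2.89% of all tested mRNAs. In 7 the groups did not overlap, all higher in F, against 7.51%. Chaperone genes were higher in 21 of 28 (median 0.13, and 0.08 without F 1 and 0.21 without F 2), with the inducible Hspa1a (0.23 ± 0.33) and Hspa1b (0.22 ± 0.42) overlapping. Clock genes were higher in 19 of 22 (median 0.14, and 0.09 without control 2 and 0.22 without control 1), Per2 being at 9.12, 8.33 and 11.9 FPKM in F and 7.26, 5.55 and 6.86 FPKM in control, whereas the core activator Arntl overlapped (0.04 ± 0.16).

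**Figure D4:**
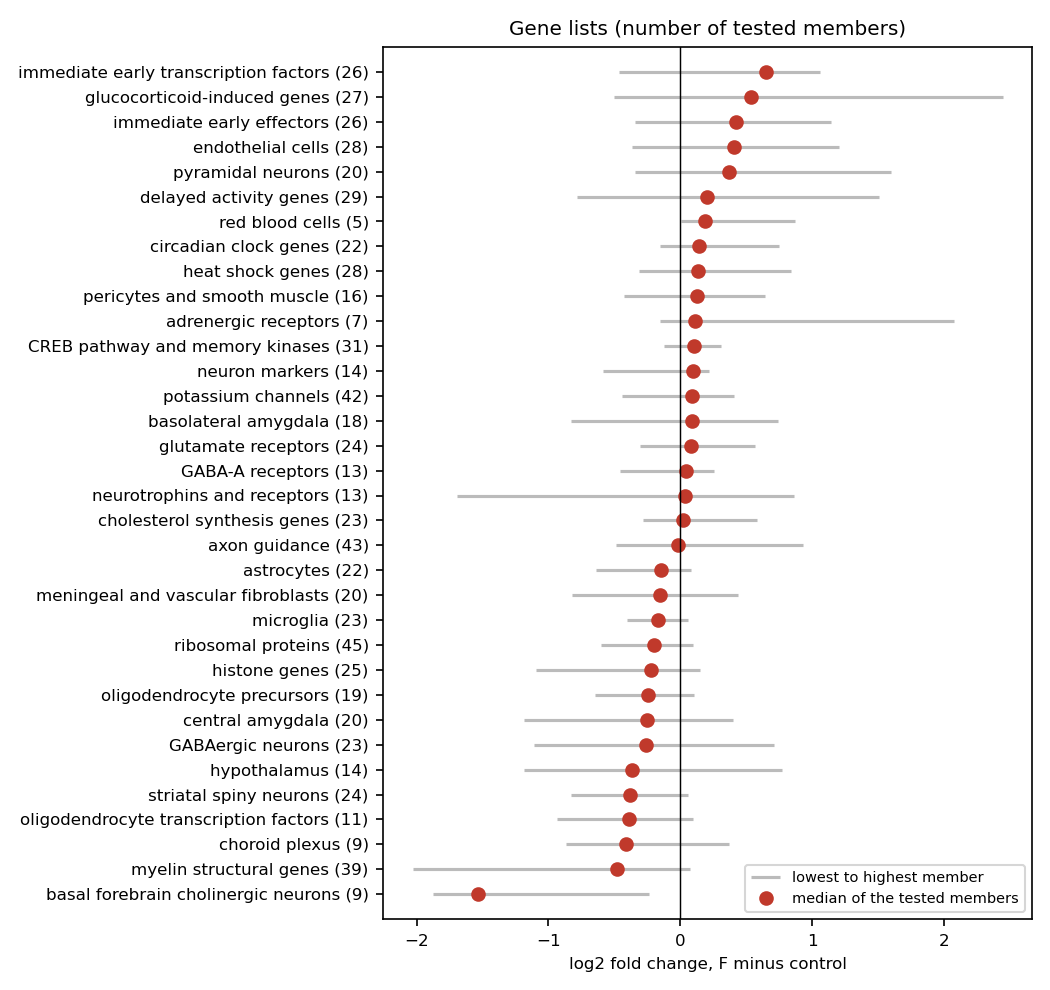
Median log2 fold change (F minus control, red points) of the tested members of each gene list, with grey lines from the lowest to the highest member and the number of tested members in brackets. Immediate early and glucocorticoid-induced genes have the highest medians (0.65 and 0.53), and cholinergic and myelin genes the lowest (-1.54 and -0.48); mitochondrially encoded genes are left out of the plot.

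For lncRNAs, 113 (1.20%) were higher and 144 (1.53%) lower in F at the study's own cut-offs (p under 0.05 without adjustment, with a fold change reaching 1 on the log2 scale), against 49 (0.363%) in each direction for mRNA. By p alone these shares were 1.97% and 2.17% for lncRNA, against 4.19% and 2.89% for mRNA. The mean had to reach 0.1 FPKM for lncRNA and 0.5 FPKM for mRNA, so the 2 classes are not compared at like levels. Of all lncRNAs, 4.29% were higher and 4.67% lower without overlap (8.96% in all). A group of neighbouring transcripts held 4 of the 8 lncRNAs ranked first among those of lower level: AK081909, AK138478, AK084446 and AK136771, at chr16:72158946-72160238, chr16:72164711-72167451, chr16:72176070-72177315 and chr16:72268597-72271410 (mm10, plus strand, called intergenic in the table). AK081909 was at 2.72, 3.00 and 2.49 FPKM in F, against 6.31, 7.05 and 5.67 FPKM in control (log2 fold change -1.18 ± 0.23, adjusted p = 0.535). AK084446 was at 0.986, 0.430 and 1.16 FPKM in F, against 2.23, 3.15 and 2.21 FPKM in control (-1.53 ± 0.31). In RefSeq these positions fall inside the span of Robo1, whose earliest start lies at chr16:72027518 and whose end lies at chr16:73047491 on the same strand. Robo1 encodes the receptor through which Slit proteins repel axons.

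All lncRNAs tested in that span were then looked up, a choice made after the values were seen. There were 14 on the plus strand, all 14 were lower in F, all 14 without overlap, and 13 had an unadjusted p under 0.05 (log2 fold changes -1.53 to -0.41, median -0.87), against 4.67% of all lncRNAs that were lower without overlap. Neighbouring transcripts of 1 strand in 1 gene span are not independent measurements. Their summed FPKM was 26.8, 27.3 and 28.5 in F, against 46.8, 62.3 and 46.9 in control. In the other groups the sum was 23.4, 31.8 and 27.4 in RE and 64.0, 65.1 and 64.4 in E, so that the F and RE libraries lay below all E and control libraries. Robo1 mRNA followed with a smaller difference, at 10.3, 10.1 and 10.3 FPKM in F and 14.1, 11.3 and 13.2 FPKM in control (-0.32 ± 0.10, adjusted p = 0.47). It was at 9.39 to 10.9 FPKM in RE and 14.4 to 14.7 FPKM in E. Its paralogue Robo2 overlapped, at 38.7 to 48.6 FPKM in F and 33.4 to 53.3 FPKM in control.

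**Figure D5:**
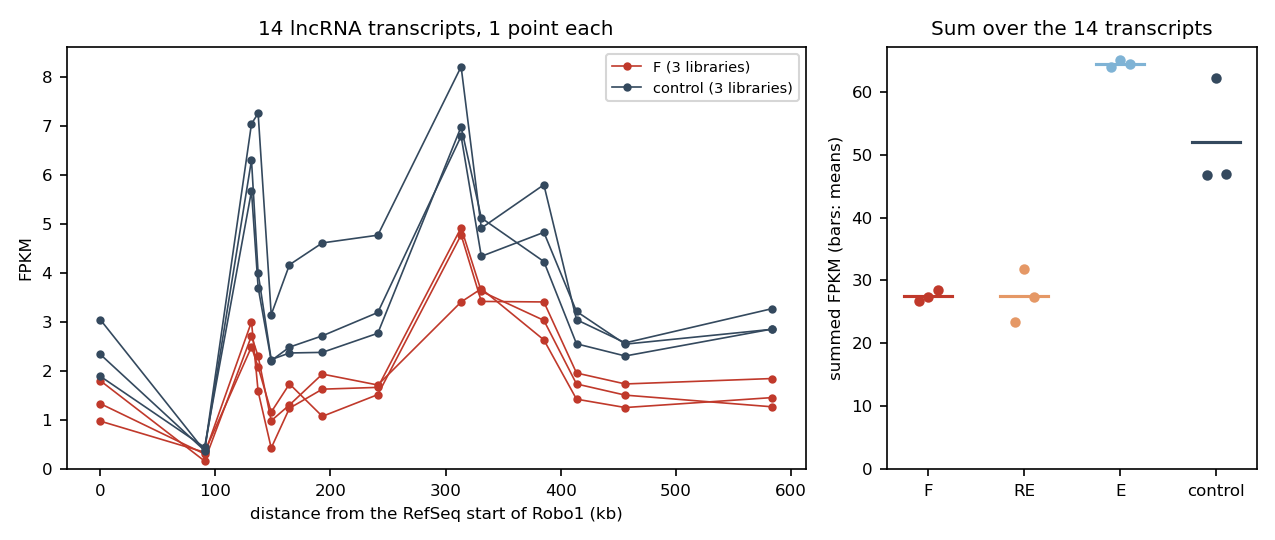
Left panel, FPKM of 14 plus-strand lncRNA transcripts by their distance in kb from the RefSeq start of Robo1, 1 line per F (red) or control (dark) library. Right panel, their sum in each library of the 4 groups with bars for the means: F and RE lie between 23.4 and 31.8, and E and control between 46.8 and 65.1.

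A second locus was looked up in the same way. Satb1, a chromatin organiser of cortical neurons, was at 21.6, 30.8 and 31.0 FPKM in F and 16.6, 17.9 and 17.1 FPKM in control (log2 fold change 0.67 ± 0.18). Its antisense transcript AK153670 was at 2.15, 2.84 and 2.52 FPKM in F and 1.18, 1.15 and 1.24 FPKM in control (1.01 ± 0.21, adjusted p = 0.53). Of 8 transcripts tested in the same assembled locus, 3 were higher without overlap, against 4.29% of all lncRNAs. Besides AK153670 these were AK042134 (1.26 ± 0.42) and AK158910 (1.20 ± 0.40). AK080162, listed near 0 in F 2, was lower without overlap (-1.41 ± 1.05), against 4.67% of all lncRNAs, and 4 overlapped. Transcripts of 1 assembled locus are not independent measurements. The most abundant Satb1 circRNA had 16, 16 and 22 junction reads in F and 17, 14 and 13 in control (0.75, adjusted p = 0.999), and overlapped. Libraries were directional, but a statement on strand in the counting step was not found in the sources used here, and sense and antisense values may share reads.

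Other lncRNAs ranked among the first of higher level were AK088937, within an intron of the cyclin gene Ccnd3 (0.824, 1.10 and 1.10 FPKM in F and 0.373, 0.261 and 0.208 FPKM in control, 1.55 ± 0.27), the intergenic AK009640 (1.84, 1.58 and 2.75 FPKM in F and 1.03, 0.478 and 0.619 FPKM in control, 1.44 ± 0.30), TCONS_00022990 (0.690 to 1.03 FPKM in F and 0.174 to 0.232 FPKM in control) and AI597468 (2.19 to 2.57 FPKM in F and 0.996 to 1.14 FPKM in control). Ccnd3 mRNA itself differed by 0.29 ± 0.20. NR_028053, a noncoding transcript of Ngrn, was at 8.77, 6.69 and 6.67 FPKM in F and near 0.01 FPKM in each control library, while Ngrn mRNA was at 7.72, 6.93 and 5.54 FPKM in F and 11.03, 20.8 and 12.1 FPKM in control (-1.06 ± 0.41). The 2 share exons, so that the assignment of reads between them is uncertain. The same caution holds for AK204461, 136 nt long inside Ppp1r16a, which was listed at or near 0 in control and at 3.59 to 13.1 FPKM in F. AK048826, called bidirectional to Zmym4, was near 0 in control and at 0.540 to 1.02 FPKM in F. In the opposite direction AK137857 was listed at 0 in the 3 F libraries and at 0.460, 0.985 and 0.557 FPKM in control, and AK192501 and A030009H04Rik were likewise at or near 0 in F, as was AK040614 in F 1 and F 2, with 0.121 FPKM in F 3.

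Well-known lncRNAs were mostly level. Neat1, the scaffold of paraspeckles, was at 11.4, 10.0 and 11.8 FPKM in F and 17.4, 18.6 and 15.4 FPKM in control (-0.63 ± 0.17, adjusted p = 0.72), clear of control. Its neighbour Malat1 was at 2020.02, 2689.9 and 2729 FPKM in F and 2114, 2129.7 and 1859 FPKM in control (0.28 ± 0.26). Meg3 (-0.08 ± 0.18), Rian (-0.12 ± 0.22), Mirg (0.14 ± 0.16), Miat (0.39 ± 0.32) and Peg13 (0.05 ± 0.12) overlapped between groups. Snhg1, a host of small nucleolar RNAs, was at 2.13 to 3.20 FPKM in F and 3.34 to 6.85 FPKM in control (-0.72 ± 0.33) and was clear of control too. By position, natural antisense transcripts had 20 higher (1.41%) and 6 lower (0.423%) at the thresholds of the study (median log2 fold change 0.08 over 1418), and bidirectional ones 9 higher (1.03%) and 22 lower (2.51%; median -0.08 over 878), against 1.20% higher and 1.53% lower of all lncRNAs. The classes were not tested against each other.

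Circular RNAs form when a downstream splice donor joins an upstream acceptor, and they are counted by the reads across that junction. F libraries held fewer of them: 996.3, 870.5 and 866.2 junction reads per 1000000 mRNA fragments in F, against 1012, 1375 and 1014 in control (mean 911.0 ± 73.9 in F and 1133 ± 208.8 in control, SD, n = 3 each). All 3 F values lay below all control values, although F 1 and control 1 were close, and a two-sided exact permutation test gave p = 0.1, the smallest that 3 against 3 allows. Exonic circRNAs made up 80.0, 83.0 and 82.8% of junction reads in F and 83.9, 83.6 and 85.0% in control. Antisense circRNAs, most of whose reads came from 1 circle at the Cdr1 locus (chrX:61183248-61186174), made up 5.66, 4.61 and 6.01% in F and 3.72, 3.40 and 3.61% in control (exact p = 0.1, again the smallest possible). Reads of this locus, known as Cdr1as and rich in miR-7 sites, were 351.7, 455.0 and 595.0 per 10000 junction reads in F and 365.1, 327.7 and 355.0 in control, and overlapped (exact p = 0.3). F 1 lay within the control range at this locus, so the higher antisense share of F 1 came in part from other antisense circles.

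At the thresholds of the study, 44 circRNAs (1.36%) were higher and 89 (2.75%) lower in F (1.45% and 2.75% by p alone, and 9.16% without overlap in either direction), and the median log2 fold change over all 3241 was -0.18 after scaling to junction reads, a shift to which single values are best compared. Junctions of 4 circRNAs of lower and 3 of higher level in F, chosen from those named below and not by rank, are printed because they are the sequence a back-splice read or primer must span: 25 bases of the donor exon in lower case followed by 25 bases of the acceptor exon in capitals, read from GRCm38 on the strand of the gene. All of them were flanked by GT after the donor and AG before the acceptor.
Mpzl1 (chr1:165604610-165608604, minus strand): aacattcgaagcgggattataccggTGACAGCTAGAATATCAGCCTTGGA
Cntn5 (chr9:9743575-9781791, minus strand): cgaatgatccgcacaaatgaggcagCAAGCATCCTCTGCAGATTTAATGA
Stip1 (chr19:7026292-7032649, minus strand): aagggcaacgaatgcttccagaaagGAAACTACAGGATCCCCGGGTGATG
Dpp6 (chr5:27382755-27399012, plus strand): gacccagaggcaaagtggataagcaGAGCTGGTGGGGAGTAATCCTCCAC
Pak7 (chr2:136116177-136116962, minus strand): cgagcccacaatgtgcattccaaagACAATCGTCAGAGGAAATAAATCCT
Cacna1a (chr8:84583559-84588859, plus strand): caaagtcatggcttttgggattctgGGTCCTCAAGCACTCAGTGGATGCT
Erc2 (chr14:28080132-28141381, plus strand): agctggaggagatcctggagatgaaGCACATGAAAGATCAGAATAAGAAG

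Mpzl1 encodes a cell surface relative of myelin protein zero, and its circRNA had 0, 1 and 1 junction reads in F, against 10, 14 and 6 in control (log2 fold change -3.28, adjusted p = 0.427). Its linear mRNA differed by -0.32. The circRNA of the adhesion molecule gene Cntn5 had no read among 39128 junction reads in F and 9, 5 and 2 reads in control. It had 0, 0 and 0 reads in E and 1, 1 and 1 in RE, so that control was the highest group. Against a floor of 3 reads over the F group the difference from control is 3.85-fold. That figure pools the libraries and takes the control reads as exact. The co-chaperone gene Stip1 gave 1, 0 and 1 reads in F and 7, 5 and 8 in control, and the potassium channel auxiliary gene Dpp6 0, 1 and 1 reads in F and 10, 2 and 9 in control. Linear Stip1 (0.01) and Dpp6 (-0.04) were level. Counts of this size carry a large counting error, and reads are not independent molecules.

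The circRNA of Esco1, a cohesin acetyltransferase gene, had 1, 0 and 3 reads in F and 13, 13 and 7 in control (-2.51, adjusted p = 0.94), that of Nol4 0, 2 and 2 reads in F and 8, 6 and 10 in control, that of the methyl-CpG binding gene Mbd5 0, 1 and 0 in F and 9, 3 and 3 in control, and that of Dgkd 0, 1 and 1 in F and 10, 5 and 3 in control. The log2 fold change of the Mbd5 circRNA (-3.07) was lower than those of Stip1 (-2.77) and Dpp6 (-2.78). Higher in F were those of the synaptic kinase gene Pak7 (8, 9 and 8 reads in F and 7, 2 and 1 in control, 1.77, adjusted p = 0.999), the calcium channel gene Cacna1a (11, 5 and 7 reads in F and 5, 2 and 3 in control) and the active zone gene Erc2 (7, 13 and 4 reads in F and 6, 3 and 3 in control). After scaling to junction reads none of these overlapped. The circRNAs of XLOC_006285 (2.36), Pde5a (1.86) and Ndst3 (1.81) had larger log2 fold changes than Pak7. The linear mRNA of Pak7 was also higher in mean (0.37), and those of Cacna1a (0.19) and Erc2 (0.06) lay nearer 0.

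Most abundant circRNAs of neuronal hosts overlapped between groups. For 34 host genes listed for their known brain circRNAs, the circRNA with most reads was examined. It had a higher level in 9 and a lower one in 25, none with an unadjusted p under 0.05. Of the 34, 2 were lower without overlap, against 5.55% of all circRNAs. The median of -0.27 lay near the -0.18 of all circRNAs. Rims2, an active zone scaffold gene, gave 52, 31 and 27 reads in F and 77, 71 and 51 in control (-0.47, adjusted p = 0.999) and Cdyl 12, 5 and 6 reads in F and 15, 19 and 12 in control, both without overlap after scaling. For Cdyl the margin was narrow, with 6.37 per 10000 junction reads in F 1 and 6.40 in control 1. Homer1, whose linear mRNA was at 0.57 ± 0.23, gave 28, 43 and 29 circular reads in F and 67, 16 and 37 in control (0.23, adjusted p = 0.999). Rims1 (43, 38 and 34 reads in F and 108, 28 and 56 in control) and Tulp4 (490, 292 and 216 in F and 628, 340 and 284 in control) overlapped once depth was taken into account.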

How the data were processed

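The BLA of 12 mice was sequenced, and 6 libraries enter the comparison of F with control. Per the labels, libraries were strand-specific, ribosomal RNA was removed, and reads were paired ends of 150 bp. For mRNA and lncRNA the study lists cutadapt, HISAT2 (mouse mm10) and cuffdiff, for circRNA STAR and DCC with circBase. BWA and a human build, which the submitters' notes also list, were not relied on, since the coordinates are those of mouse. The authors deposited FPKM values for mRNA and lncRNA and, for mRNA, an estimated count that is scaled by library. Whole fragments were recovered from it (88.6 to 90.9% of values whole within 0.05) for depth and for 1 alternative. The deposited circRNA table holds a raw count of junction reads. Another 24 columns of per-library values (lncRNA counts and the authors' log CPM) were not used, nor was microRNA.

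Tests on log2(FPKM + 0.1) used limma 3.58.1 (trended empirical Bayes, 12 libraries in 1 fit, R 4.3.3). Means had to reach 0.5 FPKM for mRNA and 0.1 FPKM for lncRNA. This scale understates changes of low genes. CircRNAs with 10 or more reads over all libraries were tested with edgeR 4.0.16 (quasi-likelihood, TMM). Benjamini-Hochberg adjustment covered all features of a class. p-values are two-sided and cover the spread between these libraries. Scripts were tested on simulated data with known changes.

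Members, lists (35 of mRNAs) and tests were chosen with earlier results of these data known. Named features were to pass the adjusted test without overlap, at a group mean of 1 FPKM or more (0.5 for lncRNA, 5 reads for circRNA), with 10 places each way (8 for lncRNA and circRNA). Places left went to the smallest unadjusted p among those meeting the study's cut-offs. Core members of each list were added, with up to 5 others at an unadjusted p under 0.05. Robo1 and Satb1 transcripts were added after their values were seen. A core member of a list is not reported here by name. Promoters come from RefSeq, and motifs were searched on both strands of 250 upstream bases. Alternatives were other scalings, filters, tools, blocks and library sets.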

Additional observations from a re-analysis of the deposited data

How the results depend on the processing

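Counts moved with the processing, and so did the directions of some lists. The count of mRNAs past the adjusted test was 0, and 1 with edgeR on recovered fragments. At the thresholds of the study, 49 mRNAs were higher and 49 lower in F. These became 15 and 10 with a pseudocount of 1, 31 and 29 with a minimum of 1 FPKM, 80 and 89 with no filter, and 88 higher with the 8 libraries that did not stand apart. With 1 library left out in turn, the adjusted count ranged from 0 to 1, the higher count from 47 to 78 (78 without control 2) and the lower count from 55 to 77 (77 without F 3).

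For lncRNA the adjusted count was 13 with those 8 libraries, 1 with F and control alone and 7 with no filter, and it ranged from 0 to 5 with 1 library left out (5 without control 3, 2 without F 1). At the thresholds of the study, 177 were higher with the 8 libraries, 33 higher and 21 lower with a minimum of 1 FPKM, and 19 and 15 with a pseudocount of 1. NR_028053 passed the adjusted test with the 8 libraries (5.96) and with F and control alone (6.08). Hif3a passed with edgeR (1.87).

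For circRNA, 27 were higher with the 8 libraries, 20 higher and 21 lower with DESeq2 and 20 and 20 with a minimum of 30 reads. With 1 library left out, higher counts ranged from 14 to 53 (14 without F 1, 27 without control 3). Deviations from the group mean of same-numbered F and control libraries correlated at r = -0.30, -0.11 and 0.11. The highest r was 0.36, for F 1 with control 2. With so few libraries these values can neither show nor exclude pairing. The numbers were not taken to pair the mice. With a replicate block, the counts higher and lower were 50 and 54 for mRNA, 116 and 117 for lncRNA, and 9 and 35 for circRNA. The cause of these shifts was not tested.

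Medians of lists of other tissues, cell types and receptors turned with single libraries: the lowest and highest with 1 library left out were -0.90 and 0.10 for striatum, -0.81 and 0.17 for hypothalamus, -0.72 and 0.045 for choroid plexus, -0.69 and 0.17 for fibroblasts, -0.25 and 0.0043 for astrocytes and -0.10 and 0.34 for adrenergic receptors. Medians near 0 (cholesterol synthesis, GABA-A receptors, axon guidance, neurotrophins) took either sign. The median of mural genes was -0.010 with the 8 libraries and -0.0083 with a minimum of 1 FPKM. Of 221 named mRNAs, 47 changed sign in at least 1 of 17 alternatives, and none of the 120 with an unadjusted p under 0.05 did. The alternatives refit the same libraries, and those 120 had been picked by p in them. A change of sign among them was therefore unlikely in advance, and its absence is not support. Depth limits circRNAs, since many named ones had under 10 reads in a library.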
